A study of Mus musculus with 6 samples.

Results

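The imprinted genes of the mouse were followed in a map of trimethylated lysine 9 of histone H3 (H3K9me3), a mark linked to gene silencing, in endothelial progenitor cells (EPCs) of the bone marrow. A list of 45 imprinted genes was used, and every autosomal region whose deposited gene name was one of them was taken as a member. This gave 73 regions of 29 genes, out of 57177 autosomal regions and 58511 regions in all. The other 16 listed genes gave their name to no region. These were Igf2, Magel2, Mkrn3, Kcnq1, Phlda2, Dlk1, Rtl1, Rian, Nespas, Mcts2, Sgce, Zrsr1, Peg13, Zdbf2, Gpr1 and Cdh15. By the deposited annotation, 33 member regions were promoters (within 3 kb of a start site), 23 were distal intergenic, 16 intronic and 1 exonic.

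The cells came from C57BL/6 J mice of 8 weeks, carried Sca-1 and CD31, and were selected on magnetic beads. There were 3 groups of 2 libraries: male mice (M-EPC), females with ovaries (F-EPC), and females whose ovaries were removed at about 35 days of age (OVX-EPC). The labels call the cells freshly isolated, while the study's methods describe growth to confluence in endothelial medium and vials set aside in duplicate. No source used here says that the 2 libraries of a group came from separate animals, so the p-values measure the spread between libraries, which may be technical. The mark was read by CUT&Tag, in which an antibody tethers a transposase that cuts and tags the DNA near it. A silencing mark cannot show which cell type was sampled, so the labelled identity was not checked from marker expression.

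Genomic imprinting leaves 1 parental copy of a gene active and the other silent. The choice is written as DNA methylation in the germ line, at control elements known as germline differentially methylated regions (germline DMRs). After fertilization the zinc finger proteins ZFP57 and ZFP445 bind the methylated copy and bring in TRIM28 and the H3K9 methyltransferase SETDB1, so in most tissues the silenced copy of such an element carries H3K9me3 and the active copy does not. Reads were not split by parent of origin here, so each value sums both copies. In a bulk library, fewer cells with the mark and less of the mark per cell cannot be told apart.

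ZFP57 is known to recognise the hexamer TGCCGC when its CpG is methylated. The stretches below, of 200 bases each, are a choice, made after the values were seen, of strongly marked member regions at or near known control elements and of regions with many hexamers. Impact region 1, the strongest region at a germline DMR start, is not printed and held 0 hexamers, and Airn region 2, the next strongest, also held 0. They are read 5′ to 3′ on the plus strand of GRCm38.p6 (mm10), lie outside annotated UTRs, and have TGCCGC or its reverse complement in capitals. In the stretch upstream of H19 the capitals mark instead a match, on the other strand, to CGNGGNGGC, the core of the motif of CTCF, an insulator protein.
Peg3 region 2, intron of Peg3, chr7:6729606-6729805: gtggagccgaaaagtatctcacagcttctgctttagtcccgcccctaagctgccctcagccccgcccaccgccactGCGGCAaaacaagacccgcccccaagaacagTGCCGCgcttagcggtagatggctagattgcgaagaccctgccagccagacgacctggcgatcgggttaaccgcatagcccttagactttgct
Mest region 1, intron of Mest, chr6:30737412-30737611: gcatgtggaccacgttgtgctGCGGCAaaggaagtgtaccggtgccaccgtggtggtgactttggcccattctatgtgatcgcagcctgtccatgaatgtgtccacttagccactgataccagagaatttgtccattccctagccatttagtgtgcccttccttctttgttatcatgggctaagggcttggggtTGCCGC
Airn region 2, exon of Airn, chr17:12816469-12816668: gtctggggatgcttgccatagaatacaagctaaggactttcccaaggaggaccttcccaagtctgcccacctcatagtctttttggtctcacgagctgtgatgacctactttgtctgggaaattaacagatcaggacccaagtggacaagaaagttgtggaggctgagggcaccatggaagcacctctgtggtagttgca
Airn region 1, intron of Igf2r and Airn, chr17:12742528-12742727: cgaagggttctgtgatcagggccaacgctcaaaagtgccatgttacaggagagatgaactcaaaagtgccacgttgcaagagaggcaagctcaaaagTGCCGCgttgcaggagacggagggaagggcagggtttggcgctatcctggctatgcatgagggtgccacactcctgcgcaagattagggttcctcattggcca
Grb10 region 5, intron of Grb10, chr11:12025926-12026125: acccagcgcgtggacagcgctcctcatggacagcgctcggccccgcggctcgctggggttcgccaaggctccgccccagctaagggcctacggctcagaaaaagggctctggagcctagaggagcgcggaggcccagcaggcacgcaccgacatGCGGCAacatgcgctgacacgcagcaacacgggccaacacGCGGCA
Gnas region 1, exon of Gnas, chr2:174299353-174299552: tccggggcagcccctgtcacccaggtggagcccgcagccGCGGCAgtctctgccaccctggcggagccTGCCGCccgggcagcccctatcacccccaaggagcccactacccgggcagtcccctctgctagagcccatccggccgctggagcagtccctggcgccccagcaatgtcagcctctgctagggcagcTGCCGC
Kcnq1ot1 region 1, start of Kcnq1ot1, chr7:143296419-143296618: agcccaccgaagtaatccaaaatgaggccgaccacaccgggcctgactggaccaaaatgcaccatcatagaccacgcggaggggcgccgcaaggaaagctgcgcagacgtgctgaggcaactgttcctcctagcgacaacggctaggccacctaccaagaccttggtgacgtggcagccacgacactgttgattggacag
Meg3 region 2, upstream of Meg3, chr12:109540612-109540811: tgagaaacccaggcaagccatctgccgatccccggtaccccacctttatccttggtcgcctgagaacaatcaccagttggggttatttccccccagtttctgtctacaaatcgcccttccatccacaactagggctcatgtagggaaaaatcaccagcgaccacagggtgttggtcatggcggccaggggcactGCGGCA
H19 region 2, upstream of H19, chr7:142580575-142580774: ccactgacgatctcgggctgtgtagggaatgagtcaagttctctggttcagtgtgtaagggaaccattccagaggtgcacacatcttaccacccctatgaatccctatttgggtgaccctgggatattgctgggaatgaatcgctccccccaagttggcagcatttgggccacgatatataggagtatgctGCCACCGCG
Rasgrf1 region 1, upstream of Rasgrf1, chr9:89879703-89879902: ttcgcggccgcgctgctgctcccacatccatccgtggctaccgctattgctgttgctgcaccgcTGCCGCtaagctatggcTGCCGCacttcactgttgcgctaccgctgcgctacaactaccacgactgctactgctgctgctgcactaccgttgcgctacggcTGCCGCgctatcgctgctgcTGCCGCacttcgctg
Plagl1 region 5, start of Plagl1, chr10:13091058-13091257: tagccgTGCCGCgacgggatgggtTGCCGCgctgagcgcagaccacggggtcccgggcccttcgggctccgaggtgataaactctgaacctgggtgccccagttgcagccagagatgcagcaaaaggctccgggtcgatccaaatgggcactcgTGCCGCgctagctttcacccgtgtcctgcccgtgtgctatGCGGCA

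The hexamer was counted on both strands in regions of 400 bp, the width of 70 of the 73 member regions and of 99.2% of all regions. It occurred in 13 of the 70 (18.6%), against 6.85% of all autosomal regions. Among promoter regions it occurred in 38.7% of the members and in 18.4% of all. CpG content moved with it. The median promoter region of the members held 23 CpG and that of all autosomal promoters 17, and among promoters with 20 or more CpG the shares were 50% for the members and 32.8% for all. The members fell apart by position. Of the 400 bp regions within 3 kb of the start of a gene with a germline DMR, 9 of 14 (64.3%) held the hexamer, against 3 of 17 (17.6%) of the other member promoters. The first set also held more CpG, with a median of 27.5 against 17, and the hexamer contains a CpG. Rasgrf1 region 1 held 5 hexamers, Plagl1 region 5 held 4, and Gnas region 1 held 3. The CTCF core was in 10.0% of the 400 bp member regions and 4.28% of all autosomal ones, and in H19 region 2 it was present 1 time. A match describes letters and is not a bound site.

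The strength of the mark followed position. The unit is the deposited signal, reads in a region divided by the size factor of the library, and a level is the mean over the 4 M-EPC and OVX-EPC libraries unless said otherwise. The median level was 18.8 in the 15 regions at germline DMR starts, 11.2 in the 18 other member promoters, and 8.96 in all autosomal promoters. The split used the distance to annotated starts, so H19 region 2, at a control element upstream of its gene, was counted among the 18 others and Airn region 2 among the 15. Of the 15, 13 lay above the median of all promoter regions and 10 above its upper quartile of 14.4. Of the 18, 8 lay above that quartile. Away from starts the members were close to the rest: the median was 6.20 against 5.61 in introns and 6.30 against 5.84 in distal intergenic regions. The distal regions were a median of 58840 bp from the start of the gene that named them. Over all 73 regions the median level was 8.33, against 6.28 over all autosomal regions. Among promoters with 20 or more CpG, the members' median was 13.9 and that of all was 11.4. These are descriptions without a test.

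**Figure D1:**
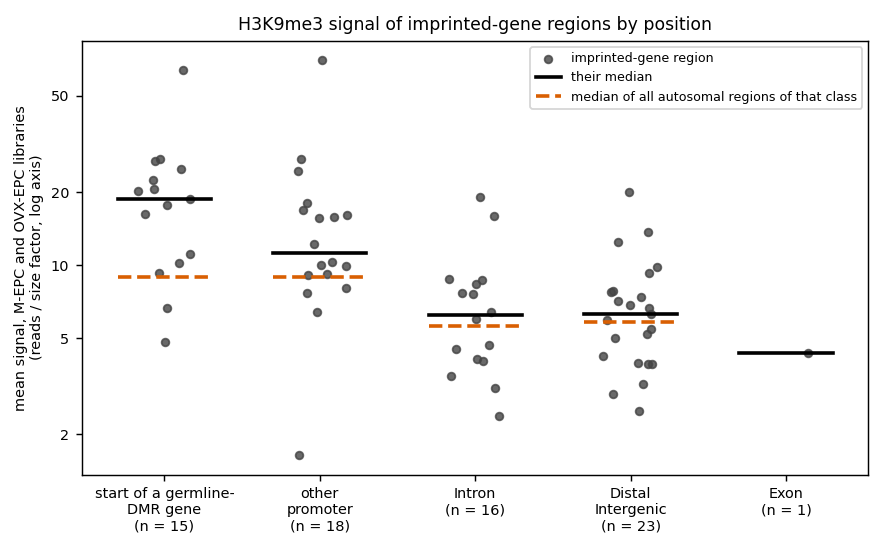
Each point is 1 imprinted-gene region, placed by position (x axis) and by its mean H3K9me3 signal over the M-EPC and OVX-EPC libraries (y axis, log scale, reads divided by size factor). Black bars are medians of the members and dashed bars medians of all autosomal regions of the same class, with both promoter columns set against all promoters. The 15 regions at germline DMR starts have a median of 18.8, against 11.2 in the 18 other promoters.

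The strongest member region was Inpp5f region 2 (chr7:128611006-128611405), which covers the annotated start of Inpp5f, an inositol phosphatase gene that holds an imprinted shorter transcript inside it. Its signal was 79.5 and 79.5 in M-EPC against 57.7 and 63.4 in OVX-EPC, a level at the 99.3rd percentile of all promoters. Impact region 1 (chr18:12973887-12974286) lies in the Impact gene, 1964 bp past its start, where the germline DMR of this regulator of translation is known. It had 99.9 and 59.6 in M-EPC against 42.5 and 53.0 in OVX-EPC. In both regions each OVX-EPC library was below each M-EPC library, and M-EPC replicate 1 stood far above the rest at Impact.

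H19 region 2 (chr7:142580395-142580794) came next. It lies 2252 bp upstream of H19, a maternally expressed long noncoding RNA, where the paternally methylated control element shared with Igf2 is known. It had 22.6 and 27.1 in M-EPC against 29.4 and 31.2 in OVX-EPC. Airn region 2 (chr17:12816369-12816768), at the start of a further Airn transcript beyond Igf2r and counted with the germline DMR starts by distance alone, had 34.4 and 28.9 in M-EPC against 22.3 and 24.6 in OVX-EPC. Mest region 1 (chr6:30737290-30737689), at the maternally methylated start of the paternally expressed hydrolase gene Mest, had 22.6 and 31.6 in M-EPC against 22.3 and 31.2 in OVX-EPC, nearly the same pair of values in each group. Peg3 region 2 (chr7:6729506-6729905), at the shared start of the paternally expressed zinc finger gene Peg3 and of Usp29, had 20.4 and 23.5 in M-EPC against 26.3 and 29.3 in OVX-EPC. At H19 and Peg3 the groups did not overlap and OVX-EPC was the higher, while at Mest they overlapped.

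In the Kcnq1 cluster, Kcnq1ot1 region 1 (chr7:143296319-143296718) covers the start of the paternally expressed noncoding RNA that silences its neighbours. Its signal was 16.1 and 19.9 in M-EPC against 23.3 and 30.3 in OVX-EPC. Cdkn1c region 3 (chr7:143460651-143461050), at the start of the maternally expressed cell cycle inhibitor, had 29.0 and 18.1 in M-EPC against 20.2 and 30.3 in OVX-EPC. The first did not overlap between groups and the second did. In the Igf2r-Airn cluster, Airn region 1 (chr17:12742428-12742827) lies in the Igf2r intron that holds the known control element, 1030 bp past the Airn start, with 21.5 and 12.7 in M-EPC against 28.3 and 19.9 in OVX-EPC. Igf2r region 3 (chr17:12769507-12769906), at the start of the growth factor receptor gene, had 17.2 as the lower of its M-EPC values and 16.2 and 10.4 in OVX-EPC, without overlap. Gnas region 2 (chr2:174300101-174300728), in a large first exon of the Gnas locus, which encodes a G protein subunit, had 27.9 and 17.2 in M-EPC against 23.3 and 12.3 in OVX-EPC. Here the replicates of a group differed by more than the groups did.

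**Figure D2:**
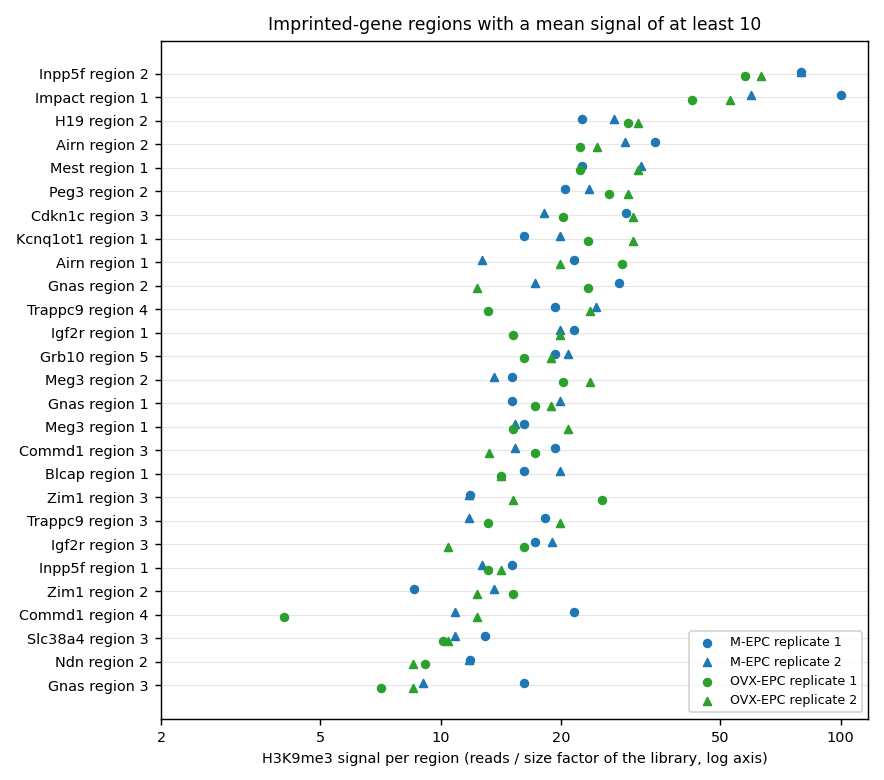
H3K9me3 signal (x axis, log scale, reads divided by size factor) of the 27 imprinted-gene regions with a mean of at least 10 (y axis), with 1 point per library, blue for M-EPC and green for OVX-EPC. Inpp5f region 2 and Impact region 1 stand apart at 42.5 to 99.9, and all other points lie at or below 34.4.

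Not every control element was strongly marked. Plagl1 region 5 (chr10:13090898-13091297), at the start of this paternally expressed zinc finger gene and with 4 hexamers, had 1.07 and 3.61 in M-EPC against 6.07 and 8.51 in OVX-EPC, low at the 17.5th percentile of promoters. Peg10 region 1 (chr6:4748107-4748506), 701 bp past the start of a gene derived from a retrotransposon, had 5.37 and 11.7 in M-EPC against 2.02 and 7.57 in OVX-EPC. Rasgrf1 region 1 (chr9:89879603-89880002), 29906 bp upstream of this exchange factor gene where its paternally methylated element is known, had 14.0 and 3.61 in M-EPC against 4.05 and 5.67 in OVX-EPC. For Snrpn, a splicing factor gene, the 2 regions of that name lay in introns at levels of 8.33 and 4.67, and the region nearest its start carried the name Snurf, with 10.7 and 5.42 in M-EPC against 9.11 and 11.3 in OVX-EPC. The start of Peg13, a noncoding RNA with a germline DMR, lay in a region named Gm28020, which is no member, at 62.3 and 38.0 in M-EPC against 34.4 and 46.3 in OVX-EPC. For Zrsr1, the nearest region was Commd1 region 3, which lay 379 bp past its start.

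The sequencing depth limits every value. The libraries held 288353 to 573821 reads in regions, and 366 to 935 of these lay in member regions. The median member region held 7 to 10 reads in the M-EPC and OVX-EPC libraries, and the exact Poisson 95% interval of 9 reads is 4.12 to 17.1. For the 57 reads of the lowest library of Inpp5f region 2 it is 43.2 to 73.9. These intervals cover counting error only. The F-EPC replicate 1 library had reads only on chr1, chr10 to chr15 and chr16 up to position 30557137, so F-EPC was compared only there. The F-EPC replicate 2 library also lacked reads elsewhere, with 0 at every member region on chr6, chr7 and chr9. Of the 73 member regions, 35 regions of 8 genes lay in the stretch used for F-EPC. There the median member region held 6 to 8 reads in each library.

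Setting OVX-EPC beside M-EPC asks where cells of females without ovaries differ from cells of males. No imprinted-gene region passed the test. Of 73 regions, 30 had a value of at least 10 in at least 2 libraries and were tested with limma, and 0 passed a Benjamini-Hochberg adjusted p of 0.05, where 0.449% of the 16931 regions tested did. At an unadjusted p under 0.05 there were 2 of 30, Impact region 1 and Commd1 region 4, against 16.1% of all tested. edgeR's quasi-likelihood test on the recovered reads called 0 of 34 member regions (0.723% of all) and DESeq2 0 of 34 (0.0416% of all). Of the 73 regions, 21 were higher in OVX-EPC without overlap and 16 lower, where 21.6% and 20.1% of all regions were. The median log2 fold change was -0.02 over the 30 members and -0.16 over all regions tested. With TMM factors in place of the deposited ones these medians were 0.14 and 0.01, a shift of the whole scale. The members' median was 0.08 without OVX-EPC replicate 1 and -0.15 without OVX-EPC replicate 2.

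Impact region 1 had a log2 fold change of -0.69 ± 0.26 (SE, n = 2 libraries a group), with an unadjusted limma p of 0.012 and an adjusted p of 0.212. Without M-EPC replicate 1, the high library, its log2 fold change was -0.32. Commd1 region 4 (chr11:22981984-22982383), at the start of a gene whose copper metabolism protein is made mainly from the maternal copy in some tissues, had 21.5 and 10.8 in M-EPC against 4.05 and 12.3 in OVX-EPC. Its log2 fold change was -0.99 ± 0.47 (SE), with an adjusted limma p of 0.300, and the groups overlapped. Without OVX-EPC replicate 1 its log2 fold change was -0.30. Inpp5f region 2 differed by -0.39 ± 0.23 (SE, adjusted limma p of 0.393). Relative to the median of all regions tested, this was -0.23.

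Several members had higher values in OVX-EPC without passing the test. Zim1 region 1 (chr7:6629433-6629832), intergenic and named for a maternally expressed zinc finger gene, had 6.45 and 5.42 in M-EPC against 10.1 and 15.1 in OVX-EPC, with a log2 fold change of 0.95 ± 0.50 (SE, adjusted limma p of 0.338). This region passed the filter only through its OVX-EPC values, so its estimate is conditional on those being high. Zim1 region 3, in an intron, had 11.8 and 11.7 in M-EPC against 25.3 and 15.1 in OVX-EPC. Meg3 region 2, upstream of a maternally expressed noncoding RNA, had 15.0 and 13.6 in M-EPC against 20.2 and 23.6 in OVX-EPC, with a log2 fold change of 0.58 ± 0.33 (SE, adjusted limma p of 0.380). Kcnq1ot1 region 1 differed by 0.54 ± 0.32 (SE, adjusted limma p of 0.384). In these regions each OVX-EPC library was above each M-EPC library. Other members were lower in OVX-EPC without overlap. H19 region 1 had 12.9 and 11.7 in M-EPC against 9.11 and 5.67 in OVX-EPC. Blcap region 1 had 16.1 and 19.9 against 14.2 and 14.2. Ndn region 2 had 11.8 and 11.7 against 9.11 and 8.51. H19 region 1 and Ndn region 2 passed the filter only through M-EPC. Gnas region 3, too low to be tested, had 16.1 and 9.04 against 7.09 and 8.51.

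Summed over all 73 regions, the signal was 896 and 845 in M-EPC against 859 and 883 in OVX-EPC, a log2 change of 0.00 with a spread between replicates of 0.05 (SD). The groups overlapped. The sums of the promoter regions (-0.05) and of the regions at germline DMR starts (-0.14) overlapped as well. Of the 18 clusters with a region, 4 were higher in OVX-EPC without overlap, 3 were lower and 11 overlapped. Of single regions over the whole table, 21.6% were higher and 20.1% lower without overlap. A sum of several regions is not the same unit as a single region, and no share was computed for comparable sums. The Peg3 cluster summed to 54.8 and 64.2 in M-EPC against 94.1 and 81.3 in OVX-EPC, a log2 change of 0.56 with a spread of 0.16. The Kcnq1 cluster differed by 0.43, the Snrpn cluster by 0.37 and the Dlk1-Meg3 cluster by 0.33. The lower clusters were Impact at -0.70, Zrsr1 at -0.39 and Inpp5f at -0.35. The exact two-sided permutation test gave p = 0.333 for each of these 7, the smallest that 2 libraries against 2 allow. All 7 kept their direction with TMM factors. Groups that do not overlap cannot change direction when 1 library is left out, so only the size of the change can move. In the Snrpn cluster, leaving out OVX-EPC replicate 1 left 0.07, and in the Kcnq1 cluster leaving out OVX-EPC replicate 2 left 0.24. Leaving out M-EPC replicate 1 left 0.22 in the Dlk1-Meg3 cluster, -0.17 in the Zrsr1 cluster and -0.33 in the Impact cluster.

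**Figure D3:**
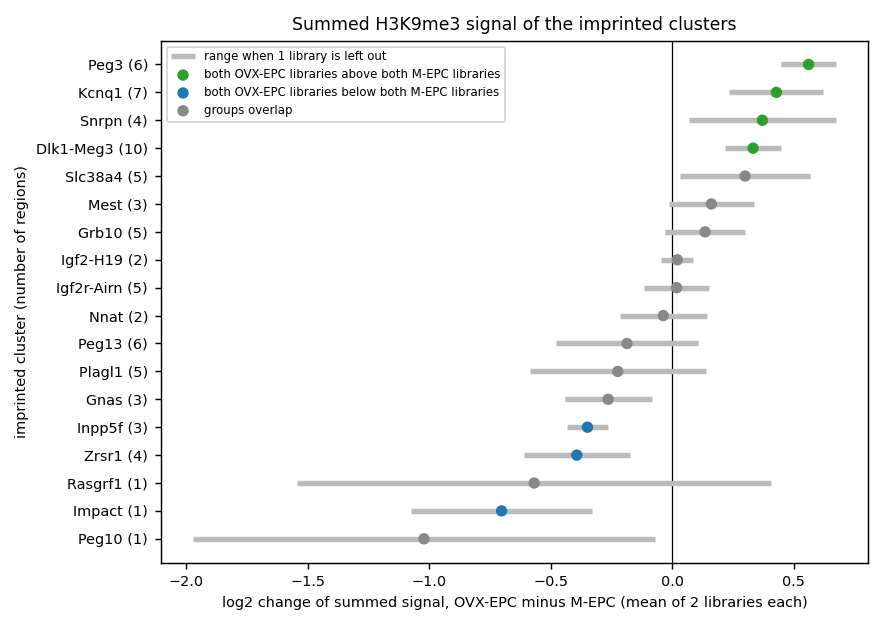
Log2 change of the summed H3K9me3 signal between OVX-EPC and M-EPC (x axis) for each of 18 imprinted clusters (y axis, with the number of regions). Points are the difference of the group means of 2 libraries, coloured by whether the libraries of the groups overlap, and grey bars span the values when 1 library is left out. Peg3, at 0.56, and Impact, at -0.70, lie at opposite ends of the non-overlapping clusters, and Peg10 and Rasgrf1, with 1 weak region each, have wide bars.

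In the Peg3 cluster, the 3 Zim1 regions together differed by 0.69 with a spread of 0.16 and the 2 Peg3 regions by 0.60 with a spread of 0.09, while the Usp29 region had 3.22 and 9.04 in M-EPC against 4.05 and 3.78 in OVX-EPC. In the Kcnq1 cluster, the 4 Cdkn1c regions differed by 0.57, and Ascl2, a transcription factor gene with 1 region, by -0.65 with a spread of 0.55, or by -0.12 without OVX-EPC replicate 1. Cdkn1c regions 1 and 2 were higher in OVX-EPC without overlap but too low to be tested. Region 1 had 2.15 and 6.33 in M-EPC against 16.2 and 7.57, and region 2 had 6.45 and 3.61 against 9.11 and 20.8. Cdkn1c regions 3 (0.11) and 4 (0.25) were tested and overlapped. In the Snrpn cluster, the 2 Snrpn regions summed to 8.60 and 9.04 in M-EPC against 19.2 and 15.1 in OVX-EPC, a difference of 0.95, while Ndn, a growth suppressor gene, had groups that overlapped. Both Snrpn regions were too low to be tested, and together held 8 and 10 reads in M-EPC against 19 and 16 in OVX-EPC. At the region nearest the Snrpn start, named Snurf, the groups overlapped. In the Dlk1-Meg3 cluster, the 2 Meg3 regions differed by 0.40 (0.24 without OVX-EPC replicate 2), and the 8 regions named for Mirg, a microRNA host RNA, overlapped between groups.

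Setting F-EPC beside M-EPC asks where cells of females with ovaries differ from those of males, and it shares the M-EPC libraries with the comparison above. Of 35 member regions, 10 were tested and 0 passed the adjusted limma p, where 1.79% of the 8139 regions tested did. At an unadjusted p under 0.05 there was 1 of 10, against 22.8% of all tested. edgeR called 0 of 11 (1.37% of all) and DESeq2 0 of 11 (0.044% of all). Without overlap, 7 of 35 were higher in F-EPC and 7 lower, where 22.3% and 20.9% of all regions were. The median log2 fold change was -0.21 over the 10 members and -0.19 over all regions tested, and with TMM factors -0.01 and 0.02. The members' median was 0.09 without F-EPC replicate 1 and 0.10 without M-EPC replicate 1, while that of all regions tested stayed negative in both.

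The 1 region was Meg3 region 2 (chr12:109540119-109540900), which ends 105 bp before the Meg3 start. Its signal was 28.7 and 26.7 in F-EPC and 17.5 and 15.2 in M-EPC, a log2 fold change of 0.73 ± 0.32 (SE, n = 2 libraries a group), with an unadjusted limma p of 0.030 and an adjusted p of 0.183. Relative to the median of all regions tested, it was 0.92. The neighbouring Meg3 region 1 had 26.3 and 25.8 in F-EPC and 18.8 and 17.2 in M-EPC, a log2 fold change of 0.51 ± 0.32 (SE, adjusted limma p of 0.324). Together the 2 Meg3 regions summed to 55.1 and 52.6 in F-EPC and 36.3 and 32.4 in M-EPC, a log2 change of 0.65 with a spread of 0.09 (exact permutation p = 0.333, the smallest possible). Every F-EPC library was above every M-EPC library at both regions. The 8 Mirg regions overlapped between the groups.

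Grb10 region 5 (chr11:12025816-12026215) lies in an intron of a maternally expressed growth-limiting adaptor gene, 1756 bp past its nearest annotated start. It had 30.3 and 26.7 in F-EPC and 22.5 and 23.3 in M-EPC, a log2 fold change of 0.30 ± 0.30 (SE, adjusted limma p of 0.562). Plagl1 region 5 was too low to be tested, with 8.78 and 8.30 in F-EPC and 1.25 and 4.05 in M-EPC. Commd1 region 3, at the Zrsr1 start, had 19.2 and 26.7 in F-EPC and 22.5 and 17.2 in M-EPC, and overlapped. Of the regions named for the trafficking gene Trappc9, region 4 had 14.4 and 24.9 in F-EPC and 22.5 and 27.4 in M-EPC, and the 4 together differed by -0.53 with a spread of 0.29, without overlap, or by -0.24 without F-EPC replicate 1.

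The 10 promoter regions of the imprinted genes summed to 156 and 171 in F-EPC and 153 and 122 in M-EPC, a log2 change of 0.27 with a spread of 0.18. These sums include the 2 Meg3 regions given above, and the change without them was not computed. Of the other promoters, Grb10 region 5 and Plagl1 region 5 were higher in F-EPC without overlap, and the rest overlapped. The 9 intron regions of the imprinted genes were lower in F-EPC by a log2 change of -0.33 with a spread of 0.14. Over the 4859 autosomal promoter regions of the same stretch the change was -0.32 with a spread of 0.14, or -0.20 without M-EPC replicate 1. With TMM factors the members' promoters differed by 0.48, their introns by -0.11 and all promoters by -0.11. The 4 regions at germline DMR starts differed by 0.29 with a spread of 0.10. In each of these sums the groups of libraries did not overlap, with an exact permutation p of 0.333. The region at the Peg13 start, also at a germline DMR but no member by its name, was not in the sum of the 4. It went the other way, with a log2 fold change of -0.67 (limma without a filter, unadjusted p of 0.009). Its reads before scaling were 45 and 36 in F-EPC and 58 and 42 in M-EPC. Leaving out M-EPC replicate 2 left 0.10 for the members' promoters, and leaving out M-EPC replicate 1 left 0.43. Over all 35 member regions the sums overlapped, with a log2 change of 0.02.

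**Figure D4:**
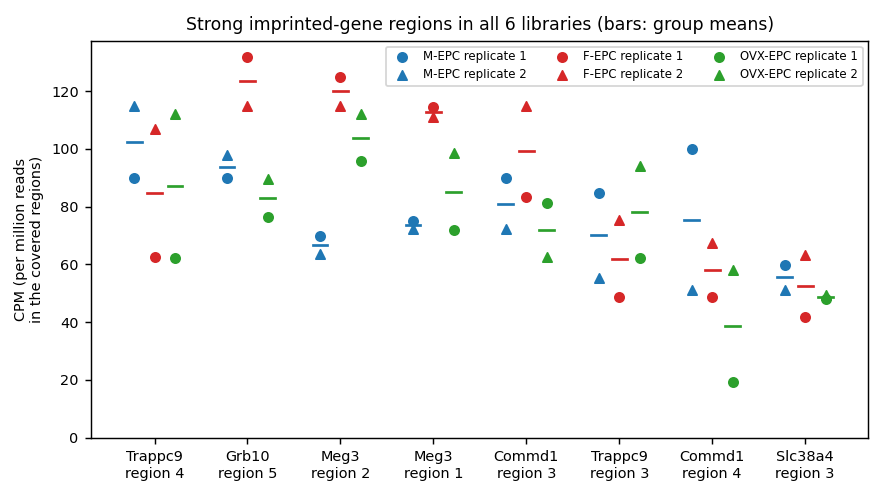
Reads in CPM (y axis), scaled to the reads of the covered regions, for the 8 imprinted-gene regions with a mean signal of at least 10 in the stretch where F-EPC replicate 1 has reads (x axis), with 1 point per library in M-EPC (blue), F-EPC (red) and OVX-EPC (green) and a bar at each group mean. Both F-EPC libraries lie above both M-EPC libraries at Meg3 regions 1 and 2 and at Grb10 region 5, and the groups overlap at most others.

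Setting OVX-EPC beside F-EPC asks what removal of the ovaries changes in cells of females, and it shares libraries with both comparisons above. Of 35 member regions, 11 were tested and 0 passed the adjusted limma p, where 0.0127% (1 region) of the 7897 tested did. At an unadjusted p under 0.05 there were 0 of 11, against 6.22% of all tested. edgeR called 0 of 12 (0.0109% of all) and DESeq2 0 of 12 (0.0% of all). Without overlap, 6 of 35 were higher in OVX-EPC and 8 lower, where 16.0% and 17.1% of all regions were. The median log2 fold change was -0.18 over the 11 members and 0.03 over all regions tested. The members' median was -0.35 without F-EPC replicate 1 and 0.01 without OVX-EPC replicate 1.

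Grb10 region 5 had 18.2 and 21.5 in OVX-EPC and 30.9 and 27.1 in F-EPC, a log2 fold change of -0.53 ± 0.30 (SE), with an unadjusted limma p of 0.090 and an adjusted p of 0.817. Meg3 region 1 had 17.0 and 23.7 in OVX-EPC and 26.8 and 26.1 in F-EPC, and Meg3 region 2 had 22.7 and 26.9 against 29.3 and 27.1. In these 3 regions each OVX-EPC library was below each F-EPC library, by little at Meg3 region 2. Slc38a4 region 1 (chr15:96896049-96896448), 123503 bp past the start of this amino acid transporter gene, had 14.8 and 10.8 in OVX-EPC and 3.25 and 5.60 in F-EPC, a log2 fold change of 1.36 ± 0.70 (SE, adjusted limma p of 0.790). This region passed the filter only through its OVX-EPC values, so its estimate is conditional on those being high.

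The 4 regions at germline DMR starts summed to 55.7 and 58.1 in OVX-EPC and 69.1 and 77.5 in F-EPC, a log2 change of -0.36 with a spread of 0.09. Of the 4, Grb10 region 5 (-0.53) and Commd1 region 3 (-0.41) were lower without overlap. Plagl1 region 5 (-0.08 without a filter) and Slc38a4 region 3 (-0.06) overlapped. The region at the Peg13 start, no member by its name and not in this sum, differed by 0.36 (limma without a filter, unadjusted p of 0.160). Over all autosomal promoters of the stretch the change was 0.10 with a spread of 0.06, from 0.04 to 0.16 when either F-EPC library was left out. The 8 Mirg regions summed to 55.7 and 46.3 in OVX-EPC and 37.4 and 30.8 in F-EPC, a change of 0.58 with a spread of 0.19. They are distal intergenic, lie 60179 to 237663 bp past the Mirg start, and were too low to be tested. Within these sums, Mirg region 6 held 10.2 and 8.61 in OVX-EPC and 0.813 and 1.87 in F-EPC. The Dlk1-Meg3 cluster as a whole differed by 0.12, the Meg3 regions by -0.28, and the 5 Plagl1 regions by -0.32. Leaving out 1 library left 0.04 for the cluster (without F-EPC replicate 2), -0.11 for Meg3 (without OVX-EPC replicate 1) and -0.17 for Plagl1 (without OVX-EPC replicate 2). The groups did not overlap in any of these sums, and each had an exact permutation p of 0.333. These sums are a selection. Of the 6 clusters of the stretch, 4 overlapped (Grb10, Peg13, Slc38a4 and Zrsr1), and so did the summed intron regions. Summed member promoters (-0.26) and distal intergenic regions (0.34) did not overlap. Over all 35 member regions the log2 change was -0.03 with a spread of 0.10.

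Genes that act on imprints and genes beside the members were counted in the same fits. Of 18 genes for imprint maintenance factors, 11 had a region, with 28 regions at a median level of 10.4, the highest of them at Smchd1 with 60.5. Of these, 3 were tested in F-EPC against M-EPC, 17 in OVX-EPC against M-EPC and 3 in OVX-EPC against F-EPC, and 0 were called by limma in each, with 0, 1 and 1 at an unadjusted p under 0.05. Of 47 neighbouring or other imprinted genes, 29 had 84 regions at a median level of 5.12, the highest at Ube3a with 40.0. Here 8, 21 and 6 were tested and 0 called by limma, with 2, 4 and 0 at an unadjusted p under 0.05. Endothelial progenitor markers had 21 regions of 4 of 7 genes, of which 1, 4 and 1 were tested and 0 called by limma, with 1, 3 and 0 at an unadjusted p under 0.05. Markers of other bone marrow cells had 8 regions of 6 of 9 genes, of which 0, 2 and 0 were tested, with 0 called by limma and 0 at an unadjusted p under 0.05.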

How the data were processed

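H3K9me3 was mapped by CUT&Tag in 6 libraries, 2 per group. As stated in the study's methods, the authors aligned paired reads of 25 bases to mm10 with Bowtie2, removed duplicates and reads of low mapping quality, called peaks with MACS and annotated regions. The submitters' processing notes name BWA and MACS2 instead. The deposited signal, in 3 tables with 1 for each pair of groups, is read counts over a library size factor (100% of values gave back whole reads at a tolerance of 1e-06), so values of 1 library differ in scale between tables. Removing duplicates limits the signal of strong regions, and the mapping filter lowers it in repeats. The tables also hold the authors' mean, log2 fold change, p-value, adjusted p-value and direction for each region, none of which was used.

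Regions with a value of at least 10 in at least 2 of 4 libraries were tested with limma 3.58.1 (R 4.3.3, mean-variance trend) on log2(value + 1), a scale that understates the change of low regions, with Benjamini-Hochberg adjustment over every region tested and a threshold of 0.05. Fold changes of low regions depend on the pseudocount of 1. F-EPC was compared over 26999 regions. Sums over regions were compared by exact two-sided permutation tests over libraries, computed with scipy 1.17.1, and their spread is the pooled SD of the log2 sums of replicates. edgeR 4.0.16 (quasi-likelihood, TMM) and DESeq2 1.42.0 on recovered reads, TMM factors, other filters, a pseudocount of 0.1, a replicate block and leaving out each library were alternatives. The fits were tested on simulated data. Positions were read against GENCODE M21 and sequences from GRCm38.p6. Regions of a gene are numbered along the chromosome.

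The members and lists were chosen with earlier results of these data known. The rule for naming a region was the highest level of its cluster, or a promoter or germline DMR start with a level of at least 10. Regions among the 5 smallest p in either direction, with groups that did not overlap, met it as well. Not every region that met the rule is given with its values, for example Trappc9 region 3, Plagl1 region 4 and Gnas region 1. Other named regions, such as Plagl1 region 5 and those in introns, were chosen after their values were seen.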

Additional observations from a re-analysis of the deposited data

Results flagged for a closer look

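Grb10 region 5, in an intron 1756 bp past a Grb10 start, had values in different directions against M-EPC in the 2 groups of females. Both F-EPC libraries were above both M-EPC libraries (log2 fold change 0.30), and both OVX-EPC libraries were below them (-0.19). Relative to the median of all regions tested, the second value is -0.02, and with TMM factors it is -0.03. The direct comparison of OVX-EPC with F-EPC gave -0.53 with an unadjusted limma p of 0.090 and an adjusted p of 0.817, which does not pass the test. The 2 comparisons share the M-EPC libraries.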

How the results depend on the processing

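The count of imprinted-gene regions called was 0 in each comparison under every alternative that could be computed. With a filter of at least 30, no member region was left in the comparisons with F-EPC. Over all regions, F-EPC against M-EPC gave 146 calls, but 4 with DESeq2, 22 with TMM factors, 231 with no filter, and 0 to 181 when 1 library was left out, with 0 without M-EPC replicate 1. OVX-EPC against M-EPC gave 76, but 8 with DESeq2, 40 with TMM factors, 123 with a filter of at least 30, 139 with edgeR, 145 with no filter, 40 with a pseudocount of 0.1, and 0 to 23 when 1 library was left out. OVX-EPC against F-EPC gave 1, but 0 with DESeq2, 0 with a filter of at least 30, and 0 to 16 when 1 library was left out. The cause of these moves was not tested.

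The summed signal over all members moved to 0.23 with TMM factors and 0.15 without distal intergenic regions in F-EPC against M-EPC. In OVX-EPC against M-EPC it moved to 0.17 with TMM factors and -0.10 over regions with at least 10 in 2 libraries. In OVX-EPC against F-EPC it moved to -0.14 over those regions and -0.21 without distal intergenic ones. Of the named regions, 3 of 9, 18 of 25 and 6 of 9 kept 1 direction under every alternative in the comparisons of F-EPC with M-EPC, OVX-EPC with M-EPC and OVX-EPC with F-EPC. Some regions were named because their groups did not overlap. The direction of such a region cannot change when 1 library is left out, so these counts are no measure of stability.

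Libraries of the same replicate number did not deviate together (correlations of -0.05, -0.02 and -0.03), so the numbers were not taken as pairs. With the replicate block, limma called 166, 103 and 0 regions in F-EPC against M-EPC, OVX-EPC against M-EPC and OVX-EPC against F-EPC, and 0 imprinted-gene regions in each.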

Other observations

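Copg2 region 1, at the start of a coat protein gene, had 18.3 in M-EPC replicate 1 and 1.81 in M-EPC replicate 2, against 10.1 and 9.46 in OVX-EPC. Slc38a4 region 3, at the start of the transporter gene with a germline DMR, held no TGCCGC hexamer and had 12.9 and 10.8 in M-EPC against 10.1 and 10.4 in OVX-EPC. Kcnk9 region 1, in an intron of a potassium channel gene, had 7.52 and 4.52 in M-EPC against 1.01 and 0.946 in OVX-EPC, which is 1 read in each OVX-EPC library.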
